A study of Mus musculus with 9 samples.

Results

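Introns beyond the first of a gene held 26259 of the 115727 open chromatin peaks (22.7%) listed for mouse naive CD4+ T cells, and these peaks fell in 6728 genes. A peak was taken as a later-intron peak when the annotation column of the peak table read "Intron" with a number of 2 or more. No measured value entered that choice. Peak positions are on the mm9 mouse genome, and the gene and intron number are those of the table.

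The cells were resting helper T cells of C57BL/6 mice, enriched with a negative-selection kit and left untreated. The groups were WT, Stat6_KO (labelled Stat6 KO) and Il21e_KO (labelled Il21e KO in the genotype field and IL21KO in the sample titles), with 3 libraries each. The labels do not say which DNA the Il21e allele removes, how old the mice were, or whether the 3 libraries of a group come from 3 mice. The p-values therefore cover the spread between these libraries, which may be technical. Accessibility was read by ATAC-seq: a transposase cuts and tags accessible DNA, and reads pile up where chromatin is open.

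Open chromatin inside introns marks, in many genes, enhancers and other regulatory elements that act on the host gene or on neighbours over long distances. In T cells, introns of genes for transcription factors, antigen receptor signalling and migration are well known sites of such elements. STAT6 carries the interleukin-4 signal toward the Th2 fate, and IL-21 is made by follicular helper and other activated T cells.

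CPM values give the reads of a peak after scaling each library to 1000000 reads over the whole peak list. Reads in peaks numbered from 1049460 to 1802405 per library, and the median later-intron peak had a mean of 3.33 reads per library. Il21e_KO 1 stood apart: 28.8% of the later-intron peaks had no read in it, against 4.21% to 14.1% in the other 8 libraries, and peaks at transcription start sites (TSS) took 42.7% of its reads. The main results of Il21e_KO are given with and without it. All 9 naive CD4 T cell markers examined had a TSS peak, 8 of them over 10 CPM. So did 5 of 5 B cell markers (1 over 10 CPM), 3 of 4 NK and CD8 T cell markers (2 over 10 CPM, up to 35.1 CPM), 2 of 4 myeloid markers (1 over 10 CPM, at 37.7 CPM) and 0 of 3 erythroid markers. Csf1r, Lyz2 and Cd8a had no TSS peak.

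Later-intron peaks were numerous but weak. Their mean level was 5.42 CPM and their median 2.12 CPM, against a mean of 6.65 CPM in first introns, 6.91 CPM between genes and 23.6 CPM at TSS. In each of the 9 libraries the mean per later-intron peak was lower than in those 3 classes. The log2 ratio over libraries was -0.30 ± 0.036 (SD, n = 9) to first introns, -0.35 ± 0.034 to intergenic peaks and -2.12 ± 0.24 to TSS peaks (exact 2-sided sign-flip permutation test over libraries, p = 0.00391 for each, the smallest p possible and also the value adjusted over the 3 tests). The peaks were also narrow, with a median width of 378 bp against 1064 bp at TSS. Together they took 14.2% of the reads in peaks (range 11.9% to 15.1% over libraries).

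A small part of the later-intron peaks was as open as a promoter. 984 of them (3.75%) reached the median level of TSS peaks, and 1516 (5.77%) were over 20 CPM. In 737 of the 5200 genes with both kinds of peak (14.2%), the strongest later-intron peak was at or above the strongest TSS peak of the same gene. Another 1528 genes with later-intron peaks had no peak annotated to a TSS.

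The level was lower the higher the number of the intron. Intron 2 held 5569 peaks (21.2% of the later-intron peaks) at a mean of 6.29 CPM. The mean was 6.11 CPM in intron 3, 5.63 CPM in intron 4, 5.11 CPM in intron 5, 4.99 CPM in introns 6 to 10, 4.66 CPM in introns 11 to 20 and 4.58 CPM beyond intron 20, up to intron 101. The order was the same in each genotype, as shown by the plot of level against intron number. In WT the mean went from 6.29 ± 0.29 CPM in intron 2 to 4.54 ± 0.29 CPM beyond intron 20, and in Stat6_KO from 6.50 ± 0.095 to 4.80 ± 0.11 CPM (SD, n = 3). The share of peaks with enough reads to be tested declined as well, from 35.3% to 24.4%.

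**Figure D1:**
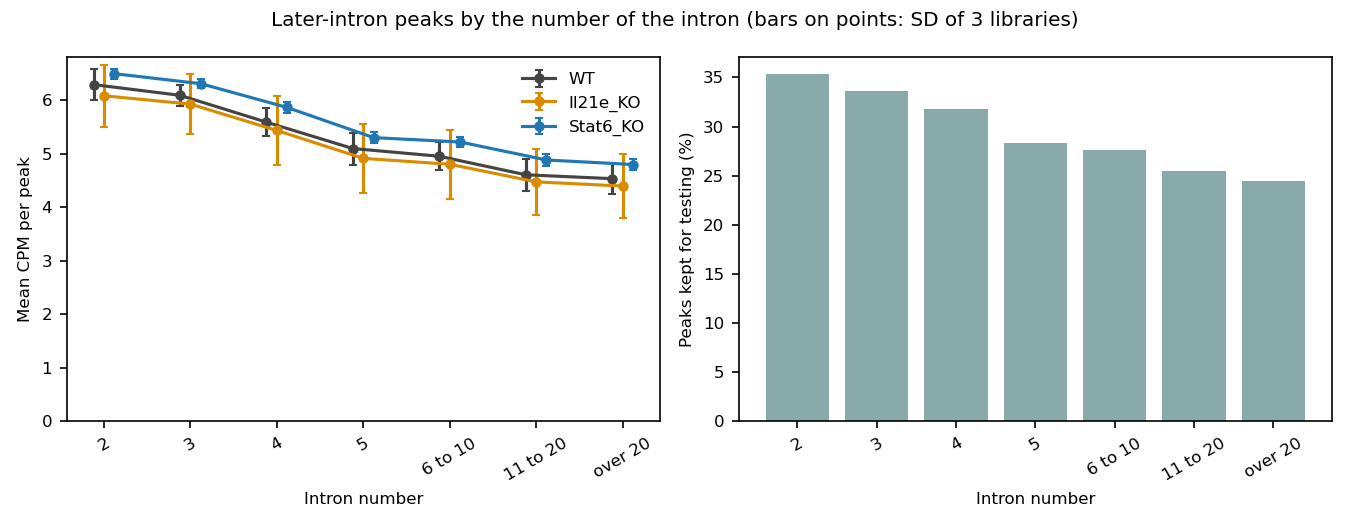
Left, mean CPM per later-intron peak (y axis) by intron number (x axis) in each genotype, with points for the mean and bars for the SD of 3 libraries; right, percent of the peaks kept for testing. Both decline from intron 2 (35.3% kept) to introns beyond number 20 (24.4% kept), and the 3 genotypes lie close together.

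Distance along the gene told less. Later-intron peaks lay a median of 48.3 kb from the TSS (quartiles 20.7 and 104 kb, at most 2234 kb). The mean level was 6.01 CPM within 5 kb, between 5.12 and 5.81 CPM in every distance class from 5 to 500 kb, and 4.71 CPM beyond 500 kb. Width went with level far more closely: the 8356 peaks of up to 300 bp averaged 1.32 CPM and the 139 peaks wider than 1500 bp averaged 46.1 CPM. Neighbouring peaks of a gene were often close, with a median gap of 3.94 kb and 35.9% of the gaps under 2 kb.

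The strongest later-intron peak lay in intron 6 of Zmiz1, which encodes a transcriptional coactivator (chromosome 14, 26425941 to 26428288). Its level was 75.9, 72.4 and 74.2 CPM in the WT libraries, 71.5, 69.9 and 81.6 CPM in Il21e_KO and 74.4, 78.3 and 86.2 CPM in Stat6_KO, so the 3 groups overlapped. Kdm2b, a histone demethylase gene, had its strongest peak in intron 6 (chromosome 5, 123400637 to 123402757; 71.8 CPM over all libraries). In Cdc42se2, a gene for an effector of the GTPase Cdc42, the intron 3 peak was at 100 CPM in Il21e_KO 1 and between 60.6 and 79.4 CPM in the other 8 libraries. Others of the 10 strongest lay in Plxnc1, Phldb1, Galm, Nisch, Cabin1 and Ttc28, with means from 63.9 to 70.3 CPM.

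Most later-intron peaks had company in the same gene. Of the 6728 genes, 2569 carried exactly 1, 4159 carried at least 2, 1517 at least 5, 568 at least 10 and 29 at least 40. The 1517 genes with at least 5 held 63.2% of the later-intron peaks and 68.6% of their CPM. Longer transcripts carried more peaks (Spearman correlation 0.53 over 6728 genes, which are not independent replicates). The median density was 3.79 peaks per 100 kb in genes with 1 peak and 10.8 in genes with at least 10. The genes were grouped by the number of peaks that enters this density, so the difference is no separate result. Genes with at least 10 held 39.8% of the later-intron peaks and 45.1% of their CPM, and genes with 1 held 9.78% and 7.98%. Peaks in the former were thus somewhat stronger on average. The median over genes was 5.85 CPM per peak against 2.10 CPM. That overstates the difference, since it sets means over many peaks of skewed level against single peaks.

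The 20 genes with the most later-intron peaks held between 45 and 112 each, 1279 in all. Inpp4b, a gene for a phosphatase of phosphoinositide lipids, led with 112 peaks over a transcript of 780 kb. The other 19 were Wwox with 87, Dock2 with 80, Arid1b with 75, Foxp1 with 73, Msi2 and Itpr2 with 66 each, Runx1 with 65, Pde4d with 64 and Skap1 with 62, followed by Asap1, Prkca, Arhgap15, Thada, Foxn3, Mllt3, Ttc28, Cblb, Akap13 and Rad51b. Of these, Foxp1 keeps naive T cells quiescent, Runx1 is a factor of T cell development, Skap1 links the antigen receptor to integrins, and Cblb is a ubiquitin ligase that restrains activation.

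Many peaks did not mean strong peaks. Dock2, the Rac exchange factor that lymphocytes need to migrate, averaged 1.91 CPM over its 80 peaks, its strongest reached 10.6 CPM, and 7 of them had enough reads to be tested. Arhgap15, a Rac inhibitor gene, averaged 2.27 CPM over 57 peaks, and Skap1 averaged 2.60 CPM over 62. In contrast Wwox, an oxidoreductase gene over a fragile site, averaged 8.45 CPM over 87 peaks, of which 39 could be tested, and its summed level of 735 CPM was the highest of the 20 genes. Arid1b, a subunit gene of the BAF chromatin remodelling complex, followed with a sum of 564 CPM and 7.51 CPM per peak, and Cblb averaged 9.01 CPM per peak. Among the 568 genes with at least 10 later-intron peaks, the number of peaks and the mean level per peak were nearly unrelated (Spearman correlation 0.096 across genes).

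**Figure D2:**
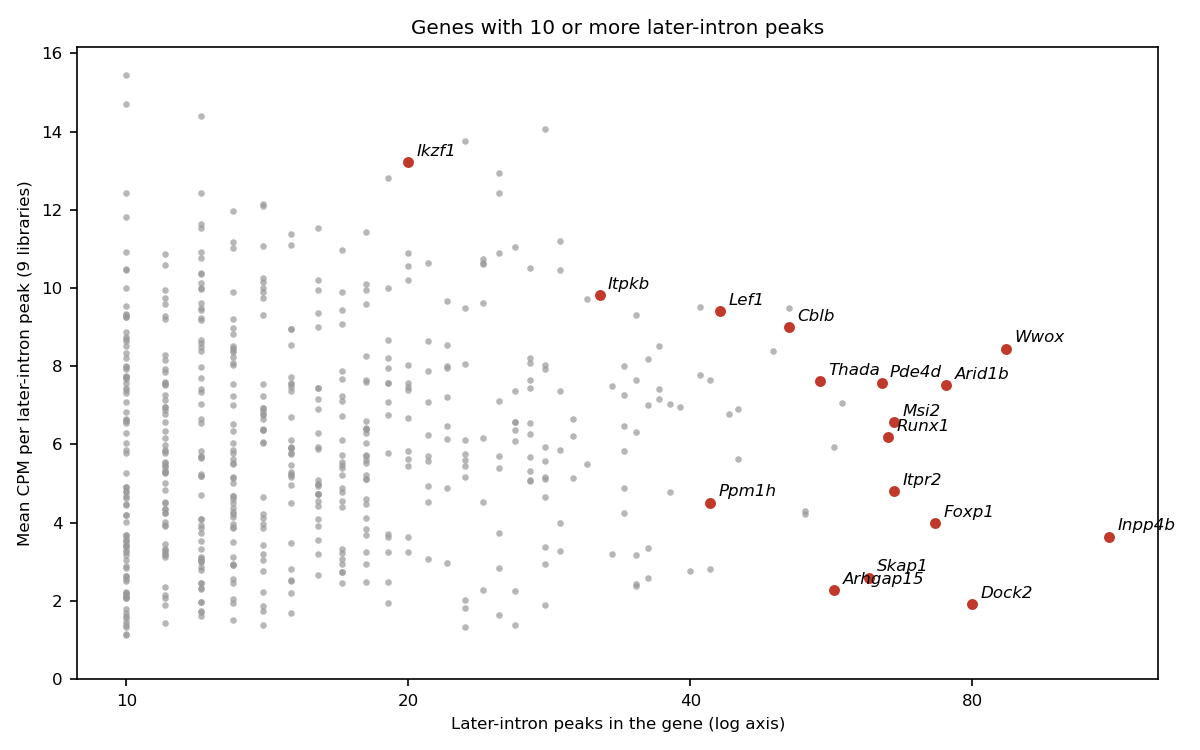
Each point is a gene with 10 or more later-intron peaks (568 genes), placed by its number of such peaks (x axis, log scale) and the mean CPM per peak over 9 libraries (y axis); genes in red are named. Dock2, Arhgap15 and Skap1 sit low, at 1.91 to 2.60 CPM, and Wwox, Cblb, Lef1, Itpkb and Ikzf1 sit between 8.45 and 13.2 CPM.

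The spread of a gene's summed level between libraries differed from gene to gene. The Wwox sum was 751, 740 and 737 CPM in WT, 716, 756 and 745 CPM in Il21e_KO and 711, 728 and 732 CPM in Stat6_KO. The Stat6_KO libraries lay just below the WT libraries there, while Il21e_KO covered both. The Inpp4b sum was 386, 378 and 462 CPM in WT, 340, 414 and 404 CPM in Il21e_KO and 433, 445 and 410 CPM in Stat6_KO, so all groups overlapped. The Dock2 sum ranged from 125 to 184 CPM in WT and from 160 to 179 CPM in Stat6_KO, and was 96.2 CPM in Il21e_KO 1 against 161 and 151 CPM in the other 2 libraries of that group.

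The densest genes, picked out after these values were seen, were other ones. Per 100 kb of transcript, and among genes with at least 10 later-intron peaks, Sfi1 held 43.8, Dusp10 41.3, Tcf7 39.6 and Lef1 37.7. Tcf7 and Lef1 encode the partner factors of naive T cell identity. Lef1 carried 43 later-intron peaks with a sum of 404 CPM, the strongest in intron 3 (chromosome 3, 130828411 to 130829742) at 47.7 ± 5.19 CPM in WT, 48.7 ± 5.11 in Il21e_KO and 47.5 ± 6.46 in Stat6_KO (SD, n = 3). All 12 later-intron peaks of Tcf7 lay in 1 intron, as did all 17 of Dusp10, a phosphatase gene of the MAP kinases. Smad7, an inhibitor of the TGF-beta signal, Itpkb, a kinase of inositol phosphates, and Dtx1, a regulator of the Notch pathway, were also among the 10 densest.

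Gene lists gave the same picture by function. The 36 T cell receptor signalling genes had 411 later-intron peaks in 31 of them at 5.53 CPM per peak, and the 34 naive and quiescence factors had 399 in 23 of them at 6.94 CPM. The 41 chromatin regulators had 338 at 6.08 CPM, with Arid1b, Hdac4, Chd2 and Chd7 in front. Here and below, the density of a list covers only the transcripts of its genes that held such peaks. It was 12.1 and 13.4 per 100 kb in the receptor signalling and naive lists. In a list of 30 long genes, most of them neuronal, it was 0.658, and the 185 peaks included the 87 of Wwox.

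The lists of helper fates were smaller. The 38 genes of cytokine receptors and the JAK-STAT pathway had 116, or 10.04 per 100 kb, among them 14 in Stat4 and 8 in Jak1, the kinase shared by many cytokine receptors. The 27 Th2 and STAT6 response genes had 44 in 8 genes, with 20 in Ikzf1, which the naive list holds too, and 9 in Gata3, the Th2 master factor. Their level (9.04 CPM per peak) was the highest of the 13 lists. The density over those 8 genes (16.5 per 100 kb) was also the highest, but the listed genes without such peaks added no length to it. The strongest Gata3 peak (intron 3, chromosome 2, 9792682 to 9793396) stood at 14.7, 17.1 and 17.4 CPM in WT, 20.96, 11.97 and 16.6 CPM in Il21e_KO and 15.9, 17.7 and 14.7 CPM in Stat6_KO, without separation. Batf, an AP-1 factor of effector cells, had a peak in intron 2 (chromosome 12, 87045643 to 87047063) at 48.7 ± 2.81 CPM in WT, 51.5 ± 4.26 in Il21e_KO and 42.9 ± 6.27 in Stat6_KO (SD, n = 3). The 23 follicular helper and IL-21 response genes had 55 peaks and the 28 Th1, Th17 and regulatory T cell genes 84.

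Later introns of genes that mark other blood cells also held peaks: 38 in 8 of 18 B cell genes, 18 in 7 of 19 myeloid genes, 19 in 4 of 17 NK and CD8 T cell genes and 15 in 6 of 15 erythroid genes. The strongest were in intron 6 of Irf8 (31.7 CPM), intron 7 of Syk (21.7 CPM), intron 9 of Epb41 (21.2 CPM) and intron 8 of Ebf1 (18.7 CPM). Ebf1 is the defining factor of early B cells. The summed level of the 5 defining B cell markers over all their peaks ranged from 83.2 to 132 CPM in WT, 58.1 to 125 CPM in Il21e_KO and 119 to 128 CPM in Stat6_KO. The part of other cell types in these peaks was not tested.

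The share of all reads that fell in later-intron peaks was compared between genotypes first. It was 13.7%, 13.8% and 14.98% in WT, 15.1%, 14.6% and 14.7% in Stat6_KO and 11.9%, 14.7% and 14.6% in Il21e_KO. The WT and Stat6_KO ranges overlapped, and Il21e_KO 1 alone was low in its group. Stat6_KO exceeded WT by 0.641 percentage points (14.8 ± 0.25 against 14.2 ± 0.71%, SD, n = 3, exact permutation p = 0.3, adjusted p = 0.45). Il21e_KO minus WT was -0.430 points (exact permutation p = 0.8), or 0.495 points without Il21e_KO 1. Stat6_KO minus Il21e_KO was 1.07 points (exact permutation p = 0.3), or 0.146 points without Il21e_KO 1. With 3 against 3 libraries an exact 2-sided test cannot go below p = 0.1, so none of these could pass.

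**Figure D3:**
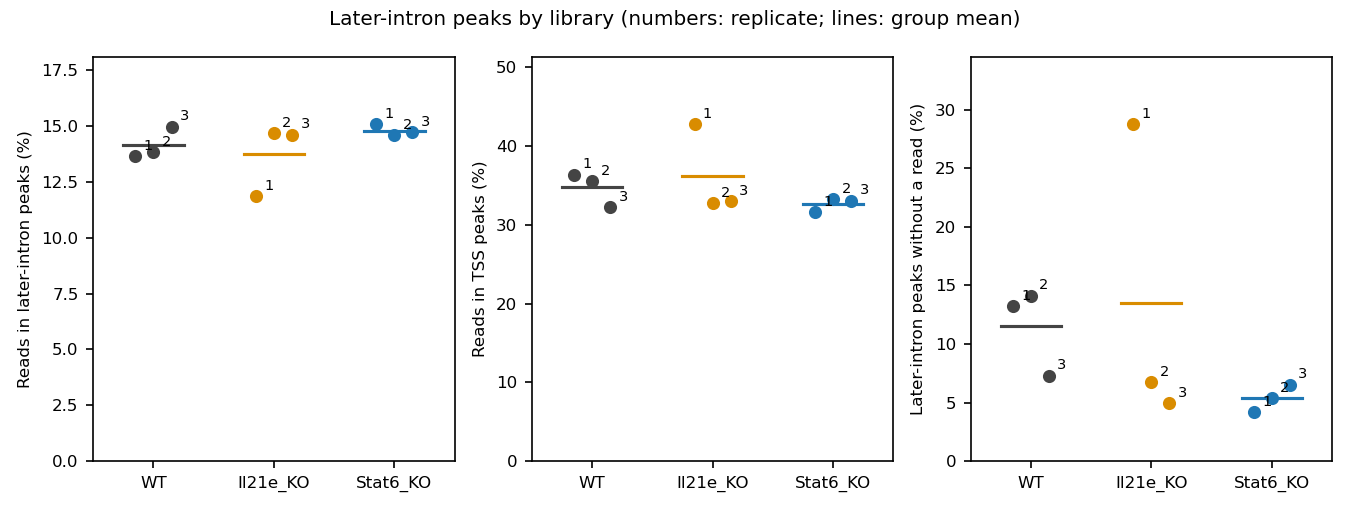
Percent of reads in later-intron peaks, percent of reads in TSS peaks and percent of later-intron peaks without a read (y axes) for each library by genotype (x axis); numbers are replicates and lines group means. Il21e_KO 1 is lowest in the left panel (11.9%) and highest in the other panels (42.7% and 28.8%).

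Coverage differed as well. Later-intron peaks without a read made up 5.38 ± 1.16% in Stat6_KO and 11.5 ± 3.71% in WT (SD, n = 3), and the groups did not overlap (exact permutation p = 0.1, the smallest possible; adjusted p = 0.3). Reads in peaks ran from 1634889 to 1759775 in the Stat6_KO libraries and from 1284426 to 1634247 in the WT libraries. The part of this difference in coverage in the results below was not tested.

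Stat6_KO was set against WT to see where accessibility differs in cells without STAT6. Of the 7883 later-intron peaks with enough reads to be tested (30.0%), 0 passed a false discovery rate (FDR) of 0.05 in either direction (limma-trend, lowest adjusted p = 0.939). Over all 48287 peaks tested, 0.0104% were called lower and 0% higher. edgeR and DESeq2 on the recovered reads also called 0. At an unadjusted p under 0.05 there were 183 higher later-intron peaks and 106 lower, or 2.32% and 1.34%, against 1.68% and 1.62% of all peaks. The 3 Stat6_KO libraries lay above the 3 WT libraries at 609 later-intron peaks and below at 421, or 7.73% and 5.34%, against 6.31% and 6.89% of all peaks. These shares were not particular to later introns. At that p, first-intron peaks had 2.39% and 1.47%, exon peaks 2.09% and 1.40%, and TSS peaks 0.58% and 2.53%. The libraries were separate at 7.98% and 5.59% of first-intron peaks and at 7.74% and 6.14% of exon peaks. The median log2 fold change was 0.03 over the later-intron peaks and -0.00 over all peaks tested.

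The smallest p belonged to a peak in intron 2 of Dusp10 (chromosome 1, 185881201 to 185881899). There were 11, 10 and 7 reads in the WT libraries, 6, 15 and 23 in Il21e_KO and 32, 28 and 26 in Stat6_KO. All Stat6_KO libraries lay above all others. The level was 6.34 ± 1.67 CPM in WT, 9.31 ± 3.52 in Il21e_KO and 16.9 ± 1.18 in Stat6_KO (SD, n = 3), a log2 fold change against WT of 1.31 ± 0.28 (SE; limma-trend adjusted p = 0.939). The 8 other tested later-intron peaks of Dusp10 had log2 fold changes between -0.37 and 0.86.

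A peak in intron 2 of Wfs1, which encodes an endoplasmic reticulum membrane protein (chromosome 5, 37370488 to 37371338), held 11, 6 and 11 reads in WT, 7, 16 and 21 in Il21e_KO and 23, 27 and 24 in Stat6_KO. The log2 fold change of Stat6_KO against WT was 1.13 ± 0.26, with separate groups. An intron 3 peak of Elovl5, a fatty acid elongase gene (chromosome 9, 77815313 to 77815774), held 1, 4 and 5 reads in WT against 17, 17 and 13 in Stat6_KO (1.74 ± 0.46). Sec63, M1ap, Ssbp3, Drc1, Nsmce2, Osbpl9 and Bag3 made up the rest of the 10 smallest p-values on the higher side, with log2 fold changes from 0.68 to 1.44. In all 10 the Stat6_KO and WT libraries did not overlap, but the 10 were chosen by their p in this comparison.

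On the lower side, 4 of the 10 smallest p-values were in Ppm1h, a gene for a phosphatase of the PP2C family. The peak in intron 4 (chromosome 10, 122251975 to 122252807) held 32, 15 and 29 reads in WT, 18, 27 and 37 in Il21e_KO and 9, 12 and 18 in Stat6_KO. The log2 fold change against WT was -1.04 ± 0.26. The peak in intron 3 (122244012 to 122244702) held 13, 14 and 8 reads in Stat6_KO against 25, 20 and 18 in WT (-0.97 ± 0.24), and the peaks in intron 2 had log2 fold changes of -0.63 ± 0.18 (at 122228939) and -0.72 ± 0.22 (at 122231314). These 4 lay between 113 and 136 kb from the TSS. A stronger peak among them (122236964, 33.6 CPM) had a log2 fold change of -0.02 ± 0.23.

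Of the 42 later-intron peaks of Ppm1h, 8 were tested and 7 of these were lower in Stat6_KO than in WT, with a median log2 fold change of -0.37. Against WT the same 8 had a median of 0.06 in Il21e_KO, and both comparisons use the same WT libraries. The sum over all 42 was 195 ± 1.99 CPM in WT, 203 ± 4.84 in Il21e_KO and 170.3 ± 11.96 in Stat6_KO (SD, n = 3; log2 fold change of Stat6_KO against WT -0.20 ± 0.072, limma-trend adjusted p = 1.00). Ppm1h lies on the chromosome of Stat6, with 4.71 Mb between its last peak and the Stat6 peaks. Stat6 itself carried 3 peaks, of which 0 were in later introns.

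Wwox and Thada, both among the 20 genes with the most peaks, also had peaks on the lower side. In Wwox, intron 8 (chromosome 8, 117403492 to 117404223) held 33, 22 and 20 reads in WT, 23, 24 and 24 in Il21e_KO and 12, 15 and 15 in Stat6_KO (-0.92 ± 0.24 against WT). In Thada, intron 21 (chromosome 17, 84818582 to 84819992) held 65, 58 and 78 reads in WT, 47, 49 and 52 in Il21e_KO and 52, 48 and 45 in Stat6_KO (-0.64 ± 0.18). Camk2b, a gene for a calcium and calmodulin dependent kinase, had 72, 51 and 52 reads in Stat6_KO against 69, 69 and 97 in WT at its intron 3 peak (chromosome 11, 5906218 to 5907923). By CPM its groups were separate, since the libraries differ in depth (-0.61 ± 0.17). Chd7, Esf1 and F5 completed the 10, with log2 fold changes from -0.89 to -0.77.

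The fold changes between Stat6_KO and WT do not use Il21e_KO 1, but the spread estimated over all groups does: the SE at the Dusp10 peak was 0.28 with that library and 0.23 without it. Without it, 8 later-intron peaks passed between Stat6_KO and WT (limma-trend, 51056 peaks tested, of which 0.0568% were called higher and 0.0666% lower). Higher were Dusp10 (adjusted p = 0.00136), Wfs1 (0.0149), Tmem163 (0.0176) and Elovl5 (0.0203), and lower were the intron 4 peak of Ppm1h (0.0256), Thada (0.0331), Camk2b (0.0395) and Wwox (0.0460). In a fit of Stat6_KO and WT alone (0.0435% of all peaks called higher and 0.0352% lower), 3 passed, in Dusp10 (limma-trend adjusted p = 0.00333), Wfs1 (0.0364) and Tmem163 (0.0445). Tmem163, named after its values were seen, had 35, 34 and 19 reads in Stat6_KO and 15, 7 and 12 in WT in intron 7, while Il21e_KO had 3, 21 and 21.

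**Figure D4:**
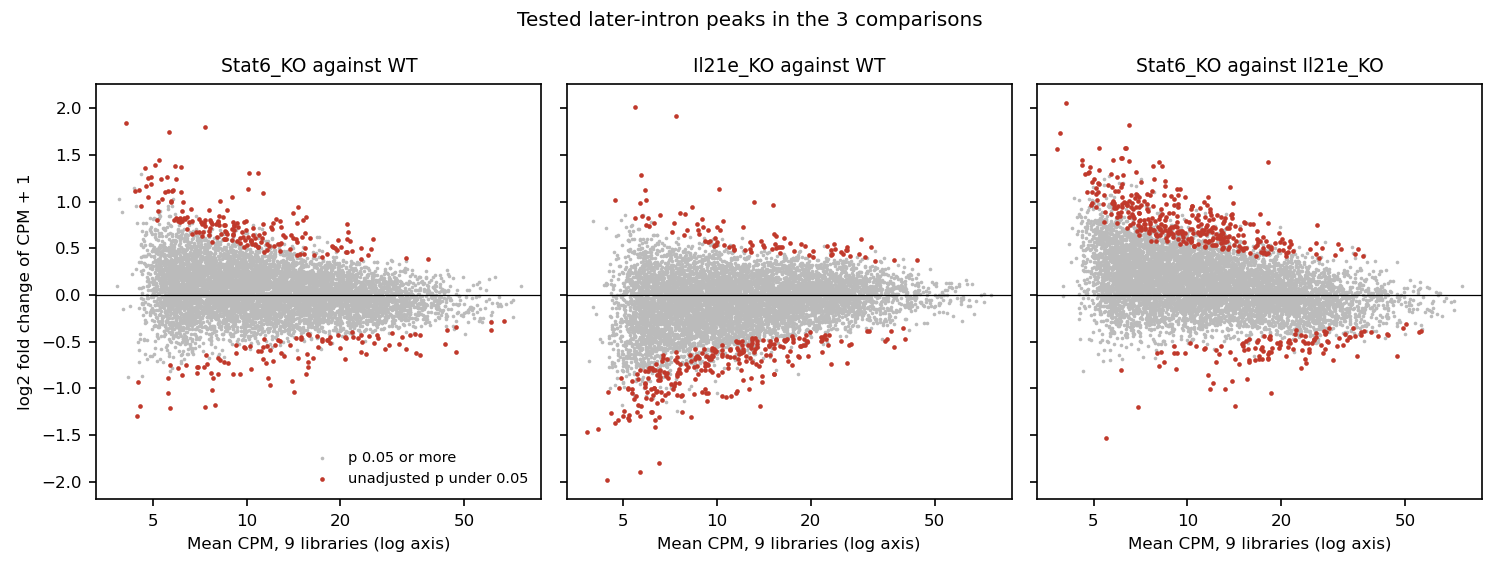
Log2 fold change of CPM + 1 (y axis) against the mean CPM over 9 libraries (x axis, log scale) for the 7883 later-intron peaks tested, in each comparison; red points have an unadjusted p under 0.05. The points spread more at low levels, and 0 passed the FDR of 0.05 in each panel.

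The comparison of Il21e_KO with WT gave 0 later-intron peaks past the FDR of 0.05 (limma-trend, lowest adjusted p = 1.00; 0% of all peaks in either direction). edgeR and DESeq2 called 0 too. At an unadjusted p under 0.05, 91 were higher and 265 lower, 1.15% and 3.36%, against 1.10% and 2.41% of all peaks. The groups did not overlap at 246 higher and 414 lower, or 3.12% and 5.25%, against 2.84% and 4.44% of all peaks. A separate test with edgeR on the recovered reads had 118 higher and 129 lower later-intron peaks at an unadjusted p under 0.05. The edgeR share over all peaks is not given here, so these counts have no background. The median log2 fold change of the later-intron peaks was -0.06, but 0.01 with edgeR and with DESeq2, and 0.04 without Il21e_KO 1, so its direction turned with the scaling and with that library.

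The smallest p was at intron 3 of Ispd, which encodes an enzyme of dystroglycan glycosylation (chromosome 12, 37195031 to 37195722). It held 15, 11 and 13 reads in WT, 1, 5 and 3 in Il21e_KO and 13, 16 and 16 in Stat6_KO. The level was 8.71 ± 0.42 CPM in WT, 1.92 ± 1.121 in Il21e_KO and 8.87 ± 1.29 in Stat6_KO (SD, n = 3), with the Il21e_KO libraries below all others. The log2 fold change against WT was -1.80 ± 0.36 (limma-trend adjusted p = 1.00). Dars, the aspartyl-tRNA synthetase gene, had 10, 13 and 16 reads in WT, 1, 4 and 2 in Il21e_KO and 5, 4 and 6 in Stat6_KO at a peak in intron 4 (chromosome 1, 130295442 to 130296098; -1.98 ± 0.50). Among the rest of the 10 on that side were Sgk1, a kinase gene induced by hormones and salt, Prdm2, Cyth4 and Plek, with log2 fold changes from -1.30 to -0.74. In 9 of these 10 peaks Il21e_KO 1 had the lowest CPM of the 9 libraries. In all 10 the other 2 Il21e_KO libraries also lay below every WT library. The 10 were chosen by their p in this comparison, so this separation gives no separate support.

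On the higher side, intron 5 of Osbpl9, a gene for an oxysterol binding protein (chromosome 4, 108766780 to 108767620), held 13, 16 and 12 reads in WT, 17, 34 and 35 in Il21e_KO and 25, 27 and 34 in Stat6_KO. Both knockouts lay above WT, with log2 fold changes of 0.97 ± 0.23 in Il21e_KO and 0.80 ± 0.23 in Stat6_KO against the same WT libraries. Intron 9 of Il6ra, the interleukin-6 receptor gene (chromosome 3, 89675936 to 89676693), held 17, 13 and 11 reads in WT, 38, 21 and 26 in Il21e_KO and 15, 16 and 15 in Stat6_KO (1.00 ± 0.30 in Il21e_KO against WT). Il21e_KO 1 stood far above the rest there, at 36.2 CPM against 13.2 and 14.4 CPM in the other libraries of its group. Slc15a2, a peptide transporter gene, held 0, 8 and 3 reads in WT against 8, 12 and 26 in Il21e_KO (1.91 ± 0.57), with WT spread widely. Without Il21e_KO 1, 1 later-intron peak passed: intron 6 of Letm1, a mitochondrial ion transport gene (chromosome 5, 34102023 to 34103181), with 3, 3 and 2 reads in WT, 32 and 19 in the 2 remaining Il21e_KO libraries, and 7, 10 and 3 in Stat6_KO. Its log2 fold change was 2.49 ± 0.45 (limma-trend adjusted p = 0.0181; 0.00588% of all peaks were called higher and 0.00196% lower). Il21e_KO 1 had 6 reads there, and the peak was not tested with all libraries.

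Stat6_KO against Il21e_KO gave 0 later-intron peaks past the threshold (limma-trend, lowest adjusted p = 0.406), while 0.0104% of all peaks were called lower. edgeR and DESeq2 called 0, and a fit of these 2 groups also called 0 (0.0124% of all peaks lower). At an unadjusted p under 0.05, 351 were higher and 121 lower in Stat6_KO, 4.45% and 1.53%, against 3.31% and 2.38% of all peaks. The groups did not overlap at 666 higher and 273 lower, or 8.45% and 3.46%, against 6.45% and 4.59% of all peaks. At that p, first-intron peaks had 3.92% and 1.36%, exon peaks 4.11% and 1.38%, and TSS peaks 1.44% and 5.14%. A separate test with edgeR on the recovered reads gave 218 later-intron peaks higher and 132 lower at an unadjusted p under 0.05. Again no share over all peaks is given. The median log2 fold change of the later-intron peaks was 0.11, and 0.00 without Il21e_KO 1.

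Ispd had the smallest p here as well (1.82 ± 0.36), and the values come from the same Il21e_KO libraries as above. On the lower side, intron 8 of Mid1, an X-linked ubiquitin ligase gene (166424568 to 166425347), held 29, 21 and 28 reads in WT, 35, 34 and 43 in Il21e_KO and 26, 21 and 15 in Stat6_KO (-1.05 ± 0.22). The next were 3 of the Ppm1h peaks, from -1.19 to -0.73, and Wwox at -0.92. E2f2, a cell cycle factor gene, held 45, 43 and 42 reads in Il21e_KO and 27, 30 and 30 in Stat6_KO in intron 6 (-0.78 ± 0.22). Cd2, an adhesion receptor gene of T cells, held 20, 24 and 32 against 15, 15 and 21 in intron 3 (-0.74 ± 0.21). Without Il21e_KO 1, the intron 4 peak of Ppm1h (-1.23, limma-trend adjusted p = 0.0273) and the Ispd peak (1.56, adjusted p = 0.0383) passed, where 0.0255% of all peaks were called lower and 0.00979% higher.

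**Figure D5:**
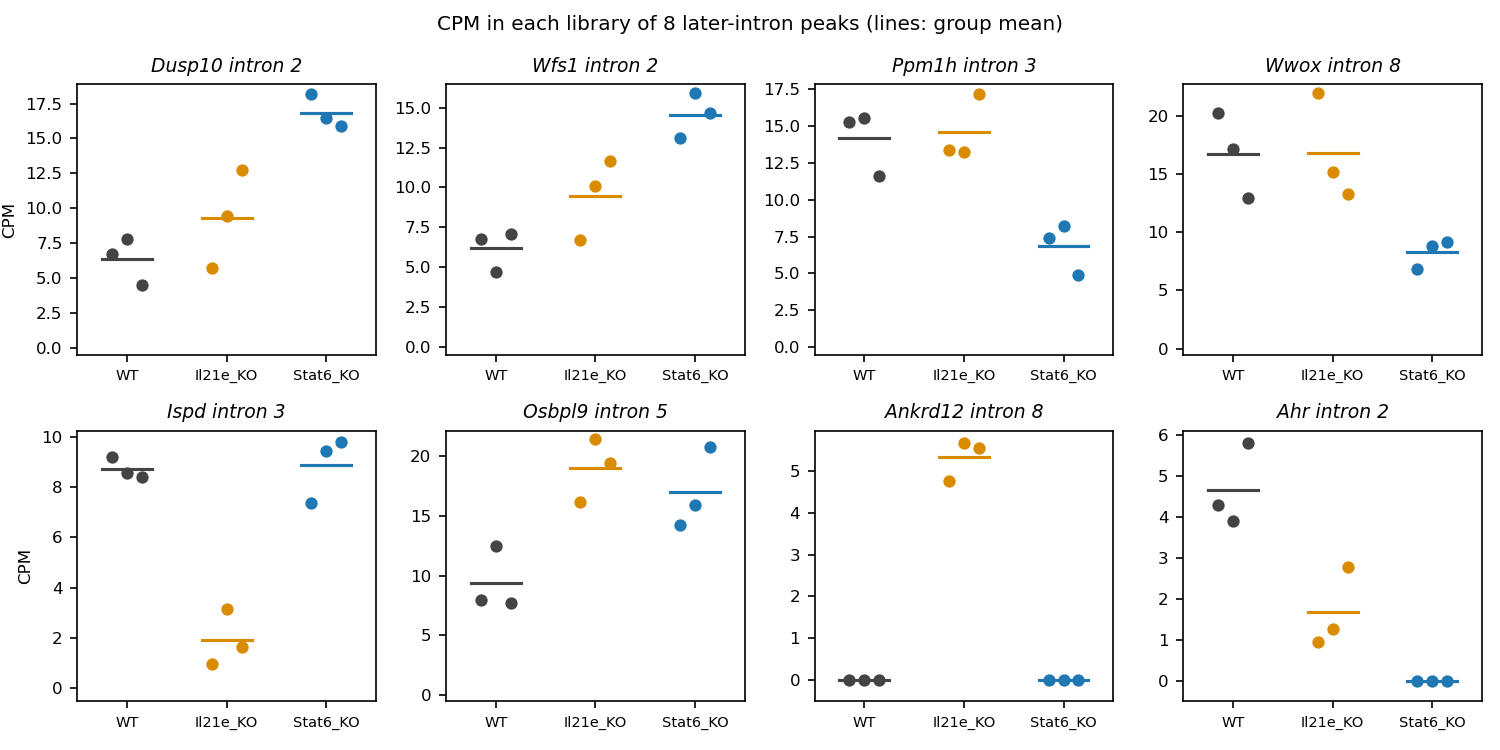
CPM (y axes) of 8 later-intron peaks in each library by genotype (x axis), with lines for group means; the first 6 have among the smallest p-values and Ankrd12 and Ahr were added after their values were seen. Stat6_KO lies above WT at Dusp10 and Wfs1 and below it at Ppm1h and Wwox, and the Ankrd12 peak has reads in Il21e_KO only.

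Lists of genes showed 0 calls in each of the 13 lists and 3 comparisons. In Stat6_KO against WT, 5 of the 126 tested peaks in T cell receptor signalling genes were higher and 1 lower at an unadjusted p under 0.05, with a median log2 fold change of 0.02; the background was 1.68% higher and 1.62% lower over all peaks, and 2.32% and 1.34% over all later-intron peaks. Among the 150 of the naive and quiescence factors, 2 were higher and 7 lower, with a median of -0.06. Of the 19 in Th2 and STAT6 response genes, 1 was higher and 2 were lower, with a median of -0.07. In Il21e_KO against WT, the 16 in follicular helper and IL-21 response genes divided into 1 higher and 1 lower, where 1.10% and 2.41% of all peaks were called at that p. Their median was -0.04, and -0.09 without Il21e_KO 1.

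Summing the later-intron peaks of a gene brought more reads to bear, and 4048 genes could be tested. With all 9 libraries 0 passed in each of the 3 comparisons (limma-trend, lowest adjusted p = 0.178, 1.00 and 0.732), and 0% of all 22852 sums over genes and annotation classes were called. edgeR and DESeq2 also called 0. At an unadjusted p under 0.05, 151 genes were higher and 27 lower in Stat6_KO than in WT, 3.73% and 0.667%, against 1.92% and 1.42% of all sums. For Il21e_KO against WT the numbers were 39 higher and 113 lower, or 0.963% and 2.79%, against 0.993% and 1.63% of all sums. Without Il21e_KO 1 the median log2 fold change of these sums turned from -0.07 to 0.07. For Stat6_KO against Il21e_KO they were 268 higher and 29 lower, or 6.62% and 0.716%, against 3.24% and 2.43%. There the median was 0.16 with Il21e_KO 1 and 0.01 without it, and the share of higher sums 75.6% and 52.0%. The Stat6_KO and WT libraries did not overlap at 463 higher and 161 lower gene sums, or 11.4% and 3.98%, against 7.23% and 7.74% of all sums. The median log2 fold change in Stat6_KO against WT was 0.09 for later-intron sums, 0.07 for first-intron sums and -0.08 for TSS sums.

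The smallest adjusted p belonged to a locus without a gene name, 4932438A13Rik on chromosome 3, singled out after its values were seen. Its 14 later-intron peaks, 0 of which could be tested alone, summed to 16.5, 17.1 and 18.1 CPM in WT, 20.96, 27.1 and 23.3 CPM in Il21e_KO and 36.9, 42.4 and 34.3 CPM in Stat6_KO. The 3 genotypes did not overlap. The log2 fold change of Stat6_KO against WT was 1.09 ± 0.18 (limma-trend adjusted p = 0.178). Its transcript spans 190 kb and ends 173 kb before the first Il21 peak. Wdr26 (11.4 ± 0.75 CPM in WT, 22.3 ± 1.54 in Stat6_KO), Lnpep (9.54 ± 1.301 and 20.6 ± 3.12), Mrnip (4.68 ± 0.82 and 11.97 ± 1.37) and Rps6kc1 (4.43 ± 0.51 and 11.95 ± 1.04; SD, n = 3) came next, each with separate groups and an adjusted p of 0.996.

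Without Il21e_KO 1, 26 gene sums passed in Stat6_KO against WT, all of them higher, while 0.293% of all sums were called higher and 0.0765% lower. Exon sums gave 24 higher and 2 lower there, and first-intron sums 5 and 2. A fit of Stat6_KO and WT alone called 12 later-intron sums, all higher, and all 12 were among the 26. In that fit 0.158% of all sums were called higher and 0.0394% lower, among them 13 exon sums higher and 0 lower. The 26 included Wac, Taok3, Rptor, Dnah17, Sec63 and Zc3hav1, named after their values were seen. They were weak: their WT sums ran from 3.93 to 54.2 CPM, and their median level per peak was 2.86 CPM against 5.66 CPM over all genes tested. Without Il21e_KO 1, Letm1, Nlgn1, Capn11 and Gm21190, also named after their values were seen, passed in Il21e_KO against WT (0.0510% of all sums called higher) and 0 passed in Stat6_KO against Il21e_KO. The share of later-intron peaks without a read was lower in Stat6_KO, as given above, and its part in these sums was not tested.

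Genes with many later-intron peaks mostly held peaks with both signs of fold change. The median SE of a tested later-intron peak was 0.27, against a median log2 fold change of 0.03 in Stat6_KO against WT. Mixed signs therefore cannot tell whether the peaks of a gene moved together. Of the 374 genes with at least 5 tested later-intron peaks, 360 had peaks on both sides of 0 in Stat6_KO against WT, 10 had all peaks higher and 4 all lower. In Il21e_KO against WT 355 were mixed, 4 all higher and 15 all lower, and in Stat6_KO against Il21e_KO 346 were mixed, 26 all higher and 2 all lower. With all 9 libraries, the median over a gene's tested peaks was above 0 in 216 of the 374 genes in Stat6_KO against WT. It was above 0 in 119 in Il21e_KO against WT and in 271 in Stat6_KO against Il21e_KO. These medians are not counted here without Il21e_KO 1. Of all tested later-intron peaks, 55.5%, 40.7% and 65.3% were higher in the 3 comparisons. Without Il21e_KO 1 the same peaks gave 11 genes all higher and 6 all lower in Il21e_KO against WT, and 3 and 5 in Stat6_KO against Il21e_KO. For the 20 genes with the most peaks, the log2 fold changes of the sums lay between -0.07 and 0.24 in Stat6_KO against WT and between -0.17 and 0.07 in Il21e_KO against WT (limma-trend, lowest adjusted p = 1.00 in both). Of these 20 sums, 16 were higher in Stat6_KO than in WT and 6 were higher in Il21e_KO than in WT. With all 9 libraries, 19 were higher in Stat6_KO than in Il21e_KO. Over all later-intron sums tested, 65.7%, 37.3% and 75.6% were higher in these 3 comparisons, and over sums of all classes 47.5%, 48.6% and 49.9%. Without Il21e_KO 1 the later-intron shares were 62.8% in Il21e_KO against WT and 52.0% in Stat6_KO against Il21e_KO. Counts for the 20 genes without that library are not given.

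A few weak peaks had no read in any library of a genotype. A search for later-intron peaks with 0 reads in all 3 libraries of a genotype and at least 5 in each library of another found 2 peaks, chosen on these values and therefore given without a test. Over all annotations the same search found 1 peak without a read in WT and 4 without one in Stat6_KO that had reads in Il21e_KO, and 1 without a read in Stat6_KO that had reads in WT. It also found 2 without a read in WT that had reads in Stat6_KO. Another had no read in Il21e_KO but reads in WT, and 0 of these were later-intron peaks. In intron 8 of Ankrd12, which encodes an ankyrin repeat protein of the nucleus (chromosome 17, 66367036 to 66367571), Il21e_KO held 5, 9 and 10 reads and all 6 other libraries held 0. Its level of 5.33 ± 0.49 CPM (SD, n = 3) was at least 2.62-fold higher than in WT and at least 3.01-fold higher than in Stat6_KO, taking 3 reads per library as the limit that a count of 0 allows. A neighbouring peak in the same intron (66365789 to 66366098) held 1, 7 and 10 reads in Il21e_KO and 0 in the other 6. The 8 remaining later-intron peaks of Ankrd12 had reads in all 3 genotypes.

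The other peak lay in intron 2 of Ahr, the aryl hydrocarbon receptor gene (chromosome 12, 36202844 to 36203329). It held 7, 5 and 9 reads in WT, 1, 2 and 5 in Il21e_KO and 0, 0 and 0 in Stat6_KO. The WT level of 4.66 ± 1.01 CPM (SD, n = 3) was at least 2.63-fold higher than in Stat6_KO on the same limit, and Il21e_KO averaged 1.66 CPM. At Il21 itself, 5 later-intron peaks were listed with means from 0.781 to 1.45 CPM and at most 5 reads in any library, too few to be tested.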

How the data were processed

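The deposited table gives, for each peak and library, CPM as computed by the authors. Each column sums to 1000000 over the listed peaks, so reads were scaled to the reads in peaks. Per the submitters' processing notes Bowtie 1.3.0, MACS2 2.0, HOMER and mm9 were used; their roles are not given in the sources used here. Some column headers do not match their contents, and those columns were read by content. Every CPM value was a whole multiple of the library's smallest step (100% within 0.01 read), taken as 1 read; the floors cover counting error only.

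Peaks were kept by filterByExpr (edgeR 4.0.16; minimum count 10, minimum total 15) and tested on log2(CPM + 1) with limma-trend (R 4.3.3, limma 3.58.1), which understates changes of weak peaks, over all 9 libraries with Benjamini-Hochberg adjustment over all 48287 peaks tested (FDR 0.05). CPM summed per gene and annotation class was fitted likewise. edgeR and DESeq2 1.42.0 on the recovered reads were alternatives. Log2 fold changes carry the SE. On simulated data for Stat6_KO against WT (46638 peaks) the fit recovered 92% of 100 peaks with 4-fold and 39% of 100 with 2-fold changes, with 8 false among 139 calls. The changed peaks were drawn from all annotations, and the shift of Il21e_KO 1 toward TSS reads was not modelled. Recovery for later-intron peaks alone was not measured.

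The members, the gene lists and the tests were chosen with earlier results of these data known. Named were the 10 peaks and 5 gene sums with the smallest p in each direction of each comparison, the 20 genes with the most peaks, the 10 strongest peaks and, per list, the 5 genes with the most peaks with their strongest peak; others are said to be named after their values were seen. Loci without a gene name were left out. Chi-square per degree of freedom between libraries was 0.723 to 1.17 over 28 pairs, within and between genotypes, and 1.79 to 3.10 with Il21e_KO 1, so no library was counted as a copy. In 24 of the 28 pairs it was below 1, so a step may stand for more than 1 read; printed reads and floors are in these steps. Some named peaks, genes and lists are not reported here.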

Additional observations from a re-analysis of the deposited data

How the results depend on the processing

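With all 9 libraries, changing the pseudocount to 0.25 or 5, the scaling (TMM), the tool (edgeR, DESeq2) or adding the replicate block left 0 later-intron peaks and 0 gene sums called in all 3 comparisons. Without a filter 1 peak was called in Stat6_KO against Il21e_KO; a fit of 2 groups called 3 peaks and 12 gene sums in Stat6_KO against WT. Leaving out single libraries gave 0 to 8 peaks in Stat6_KO against WT, 0 to 1 in Il21e_KO against WT and 0 to 2 in Stat6_KO against Il21e_KO, and 0 to 26, 0 to 4 and 0 gene sums; the highest values all came without Il21e_KO 1, and the cause was not tested. Deviations of log2(CPM + 1) from the group mean, over all tested peaks, were correlated between libraries of different groups. Same-numbered libraries had correlations of these deviations from -0.186 to 0.249 over 9 pairs, and differently numbered libraries from -0.302 to 0.242. These ranges cannot tell whether a shared number stands for anything more. The share of reads in later-intron peaks ranged from 0.393 to 1.05 percentage points in Stat6_KO minus WT, -0.910 to 0.495 in Il21e_KO minus WT, where it reversed to 0.495 without Il21e_KO 1, and 0.146 to 1.55 in Stat6_KO minus Il21e_KO. Taking reads outside TSS peaks as the total, chosen after seeing the data, gave 0.283, -0.223 and 0.505 points. The log2 ratio of the mean per peak ranged from -0.30 to -0.29 against first introns, -2.15 to -2.05 against TSS and -0.36 to -0.34 against intergenic peaks. Counting only tested peaks, 1444 genes carried at least 2, 374 at least 5 and 96 at least 10. Of 1547 alternative values for 91 named peaks and sums, 1525 kept their side of the threshold, 22 passed it and 0 reversed. The 91 were chosen by their values in these same libraries, and 0 passed in the main fit. Kept signs and sides are therefore no separate support. At this depth 70.0% of the later-intron peaks could not be tested.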
